A study of Mus musculus with 6 samples.

Results

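The genes of the mitochondrial ribosomal proteins were taken by symbol, as all genes of the deposited table whose name begins with Mrpl or Mrps followed by a digit. This gave 77 of 14492 genes, 48 Mrpl and 29 Mrps. The GENCODE M21 annotation holds 78 protein-coding symbols of this form, and the remaining one, Mrpl53, is not in the table analysed. Liver RNA came from 6 male C57BL/6J mice, aged 8 weeks and all given a high-fat diet (D12492) for 2 weeks from a tail vein injection onward. In the Chrna4 group, 3 mice received an adenovirus, a virus used to carry a gene into liver cells, made to overexpress Chrna4, a subunit of the nicotinic acetylcholine receptor. In the vehicle group, 3 mice received vehicle; one label mentions adenovirus for all mice, so whether this vehicle contained a virus without Chrna4 is not stated. The question was what this injection did to liver gene expression during high-fat feeding.

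Mitochondria keep a small genome and translate its few messenger RNAs, all of which encode subunits of the respiratory chain and ATP synthase, on ribosomes of their own. The RNA of these ribosomes is made inside the organelle, whereas their proteins are encoded in the nucleus, made in the cytosol and imported. Most proteins of the large subunit, which joins amino acids, carry Mrpl names and most of the small subunit, which reads the messenger, carry Mrps names, with exceptions such as Mrps30 and Mrps18a of the large subunit. The liver is rich in mitochondria, which carry out fatty acid oxidation and part of the urea cycle there.

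Recovered reads numbered 14959338, 16840858 and 17023536 in the Chrna4 libraries and 15191611, 20224924 and 22440334 in the vehicle libraries. Chrna4 itself did not mark the groups: it had 3.70, 2.17 and 3.82 CPM (the usual read count per library total, here with each total multiplied by the authors' factor) in the libraries labelled Chrna4, against 1.70, 4.99 and 3.38 CPM in the vehicle libraries. Its log2 fold change was 0.0069, with a 95% interval of -0.68 to 0.69 (limma, adjusted p = 0.993). The labels do not say whether the vector's transcript would count as mouse Chrna4, so Chrna4 below means the libraries labelled so. Vehicle replicate 1 had the highest summed level of the Mrpl and Mrps genes, and the main counts are also given without it. All 8 hepatocyte markers were tested, and their summed level was 70735 to 77975 CPM in Chrna4 livers and 81946 to 90621 CPM in vehicle livers on the authors' scaling. On plain library totals the same sums overlapped, at 79345 to 86443 CPM in Chrna4 livers and 69913 to 81337 CPM in vehicle livers.

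On the authors' scaling, the messenger RNAs of the mitochondrial ribosome were lower in Chrna4 livers than in vehicle livers for nearly all members, by a small amount, whereas on plain library totals the direction of the family's median was the opposite. By limma on the authors' scaling, 22 of 77 members (28.6%) fell and 0 rose at an adjusted p of 0.05. Of all 12099 genes tested, 10.3% were called lower and 14.2% higher. The member median was a log2 fold change of -0.27, with quartiles of -0.39 and -0.16, beside -0.007 for all tested genes. The fold change was negative in 74 of 77 members (96.1%), against 51.1% of all tested genes. At an unadjusted p of 0.05, 38 members were lower and 0 higher; edgeR on the recovered reads called 21 lower and 0 higher, and DESeq2 25 lower and 0 higher. The authors' deposited table calls 22 members lower and 0 higher at its adjusted p of 0.05, against 9.11% and 15.0% of its 14492 genes, and 20 of the 22 are shared with limma. Every Chrna4 value lay under every vehicle value in 47 members (61.0%), against 21% of all tested genes, and no member lay apart in the other direction, against 22% of them.

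The direction of the family's median depended on the scale of the libraries. On plain library totals 46 members turned from negative to positive, and 2 of these had been called lower. The other members called lower stayed negative, without passing the test. Members called lower had log2 fold changes of -0.30 to -0.61 on the authors' scaling, and the change of scale moved all genes nearly alike. Their kept sign thus follows from how they were chosen and is no sign of stability. The authors' factors of scaling were 1.14, 1.12 and 1.11 in the Chrna4 libraries and 0.853, 0.922 and 0.898 in the vehicle libraries. On plain library totals the median of all genes moved to 0.30, and that of the members to 0.05. On that scale limma called 0 members lower and 1 higher, Mrpl54, against 2.82% and 37.3% of all tested genes, with 1 member lower and 5 higher at an unadjusted p of 0.05. The members' median minus that of all genes was -0.26 with the authors' factors and -0.25 with plain totals; a change of factors shifts all genes nearly alike, so these 2 values are close by construction and are no sign of stability. The 100 most abundant genes of each library took 34.6 to 35.5% of its reads in Chrna4 livers and 39.9 to 42.1% in vehicle livers. Their part in the result was not tested.

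As a share of all recovered reads, which uses no factor, the 77 genes together took 0.264, 0.255 and 0.249% in Chrna4 livers, against 0.259, 0.253 and 0.236% in vehicle livers. The groups overlapped in this share, whose mean was 0.256 ± 0.00762% in Chrna4 and 0.249 ± 0.0119% in vehicle livers (SD, n = 3 each). On the authors' scaling the summed level was 2317, 2270 and 2245 CPM in Chrna4 livers and 3035, 2746 and 2630 CPM in vehicle livers, and the groups lay apart. In bulk RNA, fewer cells of a type and less RNA per cell cannot be told apart. The ratio of the summed level of the 50 large-subunit members to that of the 26 small-subunit members, placed by subunit and not by name, was 2.39, 2.39 and 2.27 in Chrna4 livers and 2.34, 2.39 and 2.32 in vehicle livers. The groups overlapped in this ratio.

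**Figure D1:**
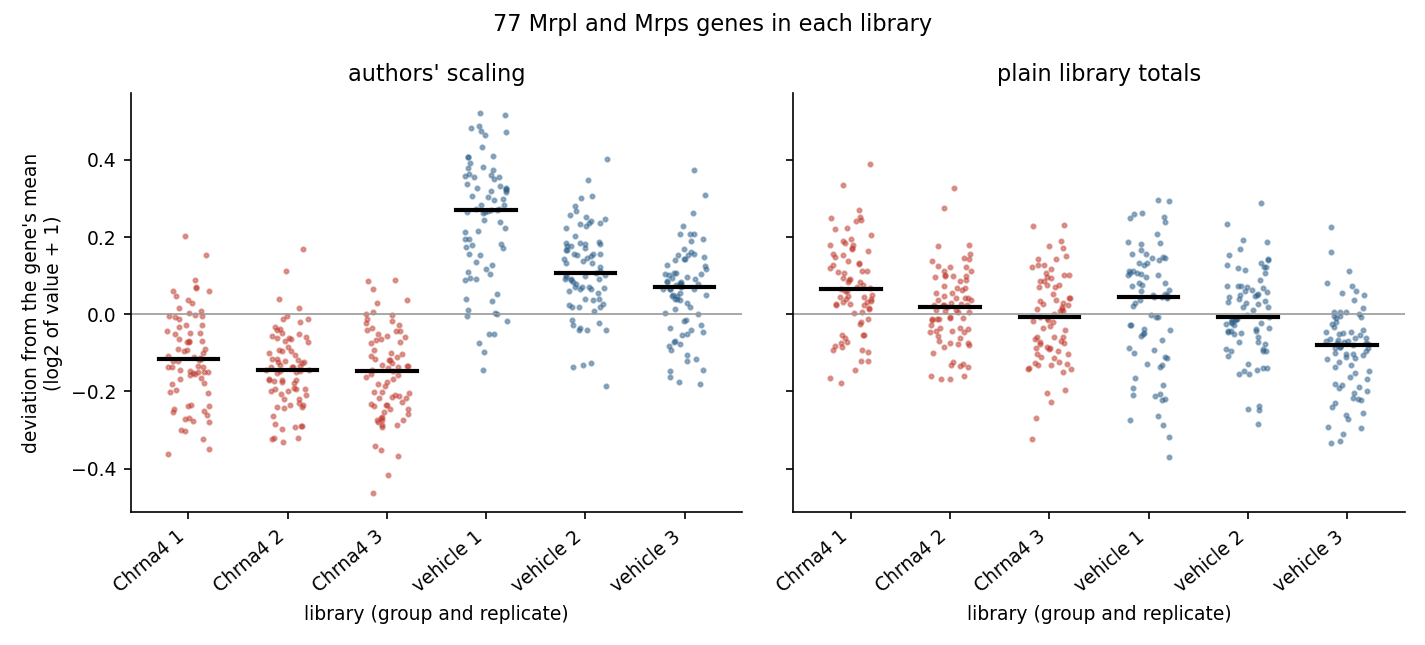
Each point is 1 of 77 Mrpl and Mrps genes in 1 library, as its log2(value + 1) minus that gene's mean over the 6 libraries; bars are medians. With the authors' scaling (left) the medians are -0.12, -0.14 and -0.15 in Chrna4 replicates 1, 2 and 3 and 0.27, 0.11 and 0.070 in vehicle replicates 1, 2 and 3, and with plain library totals (right) the groups overlap.

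Vehicle replicate 1 had the highest value of the 6 libraries in 52 of 77 members. Without it the members' median log2 fold change was -0.21, and 23 members were called lower by limma, 21 of them among the 22, against 11.7% of all tested genes called lower and 15.8% higher. The count changed more without most other libraries. It was 9, 3 and 6 without Chrna4 replicate 1, 2 and 3, and 11 and 24 without vehicle replicate 2 and 3, with 0 called higher each time. Calls over all 12099 tested genes changed too. Against 1241 lower with all 6 libraries, 707, 496 and 615 were lower without Chrna4 replicate 1, 2 and 3. Without vehicle replicate 2 and 3 they numbered 873 and 1202. The median stayed between -0.31 and -0.21 in these 6 fits.

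Levels differed far more between members than any member differed between groups. Per kilobase of the representative transcript, mean levels over the 6 libraries ran from 2.19 to 106 CPM per kb, a 48.6-fold range, with a median of 21.1 CPM per kb. Mrpl52 was the most abundant at 106 CPM per kb, and Mrpl14 and Mrps21 followed at 92.9 and 82.9 CPM per kb. Mrps25 was the lowest at 2.19 CPM per kb, with Mrpl19 at 2.75, Mrpl47 at 3.54 and Mrps30 at 3.71 CPM per kb. Such values depend on the transcript chosen. That of Mrps25 has 6073 bases, of which 513 code for protein, and 75.6% of it overlaps exons of Nr2c2 on the opposite strand. That of Mrpl19 has 5000 bases, of which 876 code for protein. Without division by length the mean levels of members ran from 5.35 to 74.1 CPM. The median level was 25.1 CPM per kb for Mrpl and 15.5 CPM per kb for Mrps genes. Of these genes, Mrpl14 was called lower in Chrna4 livers, and Mrpl52 missed the threshold at a log2 fold change of -0.30 (limma, adjusted p = 0.103).

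**Figure D2:**
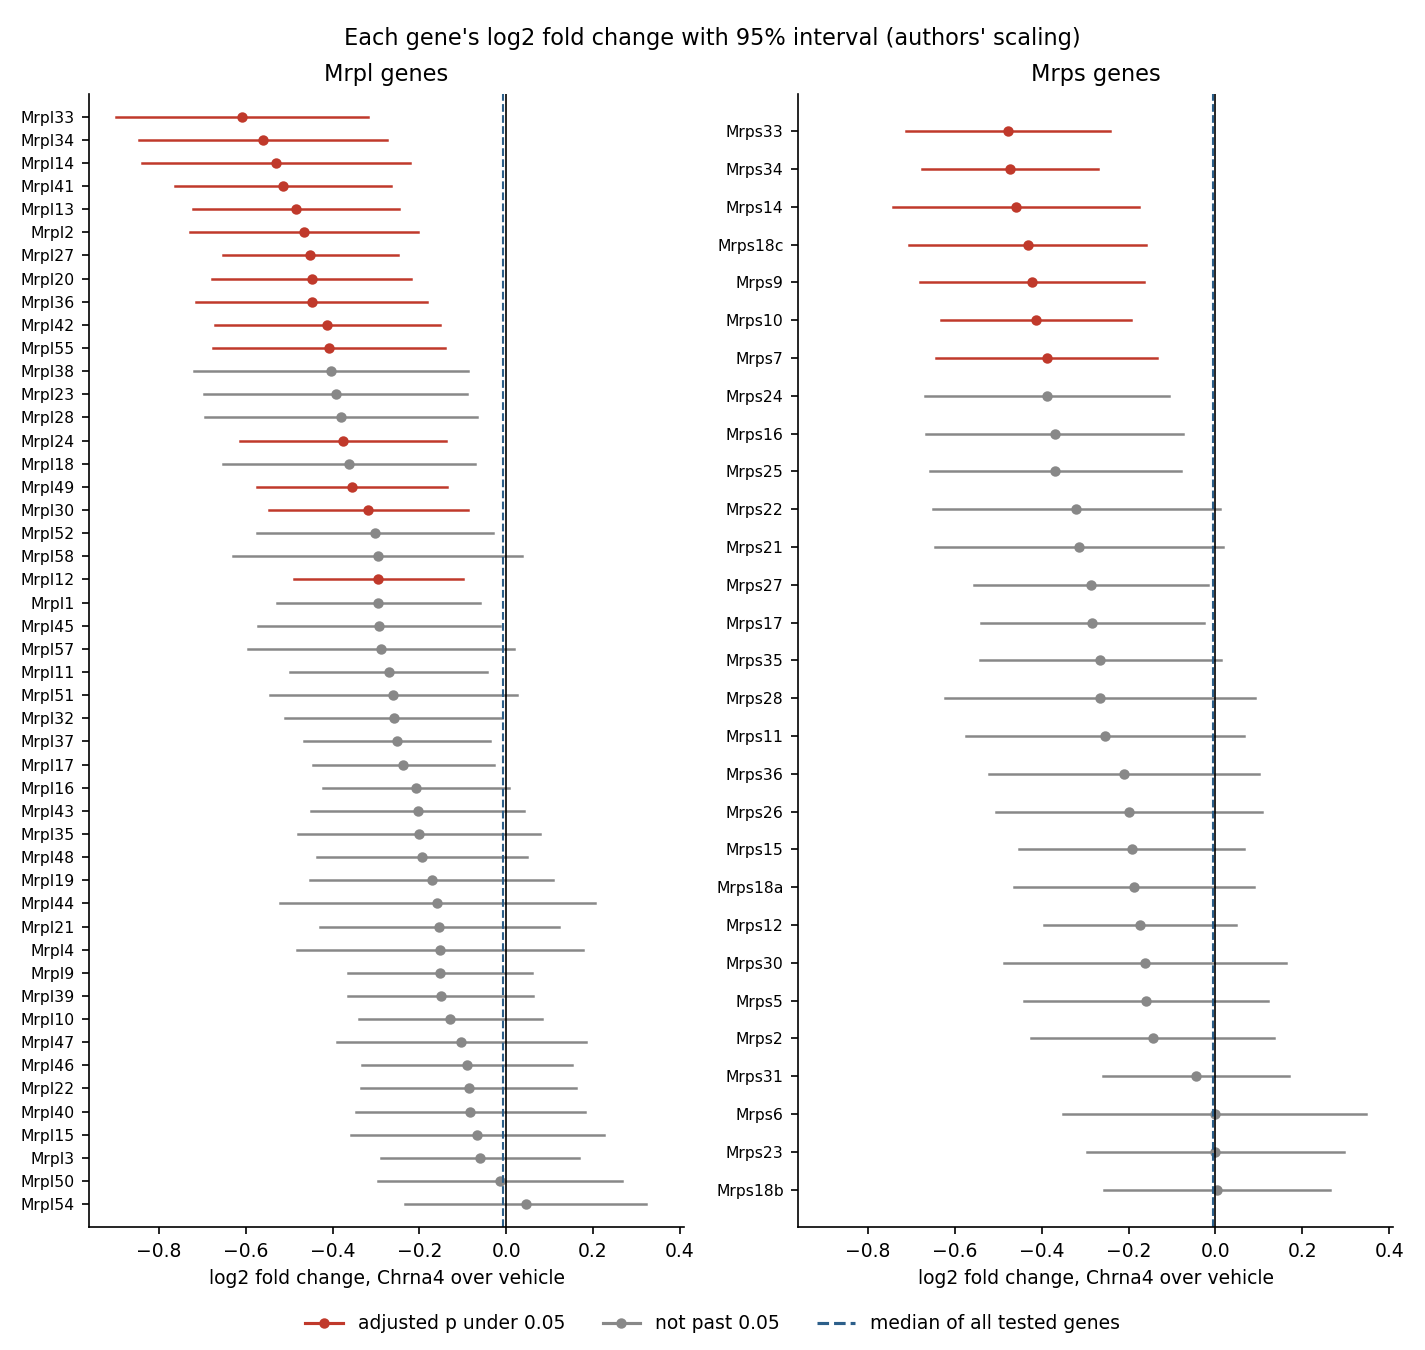
Log2 fold change of each Mrpl and Mrps gene, Chrna4 over vehicle, on the authors' scaling, with its 95% interval from limma (n = 3 libraries per group); red marks an adjusted p under 0.05. The values run from -0.61 to 0.045, 74 of 77 are negative, and on plain library totals the sign is negative in only 28.

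Among large-subunit proteins with a counterpart in bacteria, 12 of 31 genes fell on the authors' scaling (38.7%, against 10.3% of all tested genes). The median log2 fold change of the 31 was -0.29. Mrpl27 is the counterpart of a bacterial protein whose end reaches the site of peptide bond formation. The gene (ENSMUSG00000024414) lies on the plus strand of chromosome 11, 94653767 to 94660089 in GRCm38. Mrpl27 had 43.5, 40.8 and 39.5 CPM in Chrna4 livers, against 57.6, 56.6 and 56.1 CPM in vehicle livers. The 2 groups lay well apart, and the log2 fold change was -0.45 ± 0.089 (SE; limma, adjusted p = 0.00851).

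Mrpl33 had the largest difference of the 77 genes. This short protein (ENSMUSG00000106918, plus strand of chromosome 5, 31596935 to 31664384 in GRCm38) has a bacterial counterpart too. Its values were 15.7, 16.4 and 13.4 CPM in Chrna4 livers and 26.5, 22.4 and 21.9 CPM in vehicle livers, a log2 fold change of -0.61 ± 0.13 (SE; limma, adjusted p = 0.0108). The highest Chrna4 value was well under the lowest vehicle value. Of its transcript, 37.0% overlaps a noncoding transcript on the same strand, Gm43809, which can share its reads.

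Mrpl13 and Mrpl20, bacterial counterparts that bind ribosomal RNA early in assembly of the bacterial subunit, also fell. Mrpl13 had 40.1, 37.5 and 34.9 CPM in Chrna4 livers, against 57.2, 52.8 and 48.7 CPM in vehicle livers (log2 fold change -0.48, limma adjusted p = 0.0118). Mrpl20 had 35.1, 30.8 and 30.7 CPM in Chrna4 livers, against 42.9, 46.7 and 43.1 CPM in vehicle livers (log2 fold change -0.45, limma adjusted p = 0.0139). In both genes the 3 Chrna4 values were the 3 lowest. Mrpl34, Mrpl36 and Mrpl14, further bacterial counterparts, had log2 fold changes of -0.56, -0.45 and -0.53 (limma adjusted p = 0.0140, 0.0249 and 0.0229).

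The stalk that recruits translation factors is built from Mrpl10 and Mrpl12, with Mrpl11 at its base. Mrpl12, which has also been reported to bind the mitochondrial RNA polymerase, had 56.9, 54.1 and 56.4 CPM in Chrna4 livers and 70.0, 70.0 and 66.1 CPM in vehicle livers. The groups lay apart by a small margin relative to the level, and Mrpl12 fell by 0.30 on the log2 scale (limma, adjusted p = 0.0366). It was called in 8 of the 15 alternative fits, its log2 fold change was 0.034 on plain totals, and the authors' deposited table gives it an adjusted p of 0.113. Mrpl11 had 24.6, 22.9 and 23.05 CPM in Chrna4 livers, against 29.3, 29.6 and 26.8 CPM in vehicle livers, and did not pass (log2 fold change -0.27, limma adjusted p = 0.0835). Mrpl10 overlapped between groups, with 38.6, 41.7 and 37.9 CPM in Chrna4 livers and 41.3, 43.9 and 44.2 CPM in vehicle livers (log2 fold change -0.13, limma adjusted p = 0.362).

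Proteins of the large subunit without a bacterial counterpart numbered 19, with a median log2 fold change of -0.25 on the authors' scaling. Of these 3 fell (15.8%, against 10.3% of all tested genes). One of these is Mrpl41 (ENSMUSG00000036850, minus strand of chromosome 2, 24974117 to 24975098 in GRCm38). Mrpl41 had 20.7, 19.4 and 19.7 CPM in Chrna4 livers, against 30.2, 30.8 and 26.0 CPM in vehicle livers. Its groups lay apart, at a log2 fold change of -0.51 ± 0.11 (SE; limma, adjusted p = 0.0113). Mrpl45, which anchors the ribosome to the inner membrane beside the exit of the new chain, had 25.2, 23.6 and 26.4 CPM in Chrna4 livers, against 35.0, 31.4 and 26.8 CPM in vehicle livers. Its vehicle values spread widely, and it was not called (log2 fold change -0.29, limma adjusted p = 0.119).

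Other proteins of this class with known special roles did not pass the test. Mrpl58, a peptidyl-tRNA hydrolase that frees stalled ribosomes, had 26.7, 24.9 and 27.9 CPM in Chrna4 livers and 38.6, 34.6 and 26.2 CPM in vehicle livers (log2 fold change -0.30, limma adjusted p = 0.182). Mrpl44, which has a fold like that of RNase III, had 16.0, 20.2 and 21.6 CPM in Chrna4 livers and 25.6, 18.3 and 20.95 CPM in vehicle livers (log2 fold change -0.16, limma adjusted p = 0.519). Mrps30, a large-subunit protein despite its name, had 12.2, 10.5 and 11.9 CPM in Chrna4 livers and 15.6, 11.9 and 11.8 CPM in vehicle livers (log2 fold change -0.16, limma adjusted p = 0.458). In all of these the groups overlapped.

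In the small subunit, 5 of 17 genes with a bacterial counterpart and 2 of 9 without one fell on the authors' scaling, with medians of -0.28 and -0.29. These shares were 29.4 and 22.2%, against 10.3% of all tested genes. Mrps34, a small-subunit protein found only in mitochondrial ribosomes, had the lowest p-value of the family. Its gene (ENSMUSG00000038880) lies on the plus strand of chromosome 17, 24895116 to 24897502 in GRCm38. Mrps34 had 39.5, 41.2 and 40.5 CPM in Chrna4 livers, against 59.3, 56.4 and 53.9 CPM in vehicle livers. Values within each group were close and the groups far apart, at a log2 fold change of -0.47 ± 0.089 (SE; limma, adjusted p = 0.00713). However, 62.7% of its representative transcript overlaps exons of Mapk8ip3 on the opposite strand, and the labels do not say whether reads were counted by strand.

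Mrps33, also without a bacterial counterpart, had 16.7, 17.3 and 17.2 CPM in Chrna4 livers, against 25.2, 24.9 and 22.5 CPM in vehicle livers (log2 fold change -0.48, limma adjusted p = 0.0122). Mrps10, Mrps9 and Mrps14 sit in the head of the small subunit, like their bacterial counterparts. Mrps10 had 31.3, 32.8 and 31.8 CPM in Chrna4 livers, against 42.5, 46.0 and 40.3 CPM in vehicle livers (log2 fold change -0.41, limma adjusted p = 0.0161). Mrps9 and Mrps14 fell by 0.42 and 0.46 on the log2 scale (limma adjusted p = 0.0275 and 0.0289). Mrps7, which starts assembly of the head in bacteria, had 60.3, 59.3 and 61.6 CPM in Chrna4 livers and 92.3, 76.1 and 71.2 CPM in vehicle livers (log2 fold change -0.39, limma adjusted p = 0.0357). The Chrna4 values of these 5 genes all lay under the vehicle values.

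Mrps12, the protein of the decoding centre, had 33.6, 34.3 and 35.6 CPM in Chrna4 livers and 42.1, 38.5 and 36.7 CPM in vehicle livers; the groups lay apart narrowly and the test was not passed (log2 fold change -0.17, limma adjusted p = 0.235). Mrps5, whose counterpart in Caenorhabditis elegans is known for lengthening lifespan when knocked down, had 43.4, 41.5 and 44.8 CPM in Chrna4 livers and 56.8, 41.7 and 47.9 CPM in vehicle livers (log2 fold change -0.16, limma adjusted p = 0.395). Mrps27, a pentatricopeptide repeat protein, had 18.5, 20.1 and 22.1 CPM in Chrna4 livers and 22.6, 25.1 and 27.1 CPM in vehicle livers (log2 fold change -0.29, limma adjusted p = 0.115). None of the 3 was called.

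The 3 mitochondrial relatives of bacterial S18 differed in their calls. Mrps18c, in the small subunit, fell, with 13.8, 13.8 and 11.7 CPM in Chrna4 livers against 17.2, 17.5 and 19.2 CPM in vehicle livers (log2 fold change -0.43, limma adjusted p = 0.0309). Mrps18a, in the large subunit, had 23.9, 27.4 and 26.4 CPM in Chrna4 livers and 33.6, 29.6 and 26.1 CPM in vehicle livers (log2 fold change -0.19, limma adjusted p = 0.307). Mrps18b had 17.1, 16.6 and 16.6 CPM in Chrna4 livers and 18.1, 17.2 and 15.0 CPM in vehicle livers, with a log2 fold change of 0.0029 and an interval of -0.26 to 0.26 (limma, adjusted p = 0.992). Whether the 3 differ from each other was not tested. Of the Mrps18b transcript, 59.1% overlaps an antisense transcript, Gm16279. Of the Mrps18c transcript, 27.3% overlaps Gm43511 on the same strand.

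**Figure D3:**
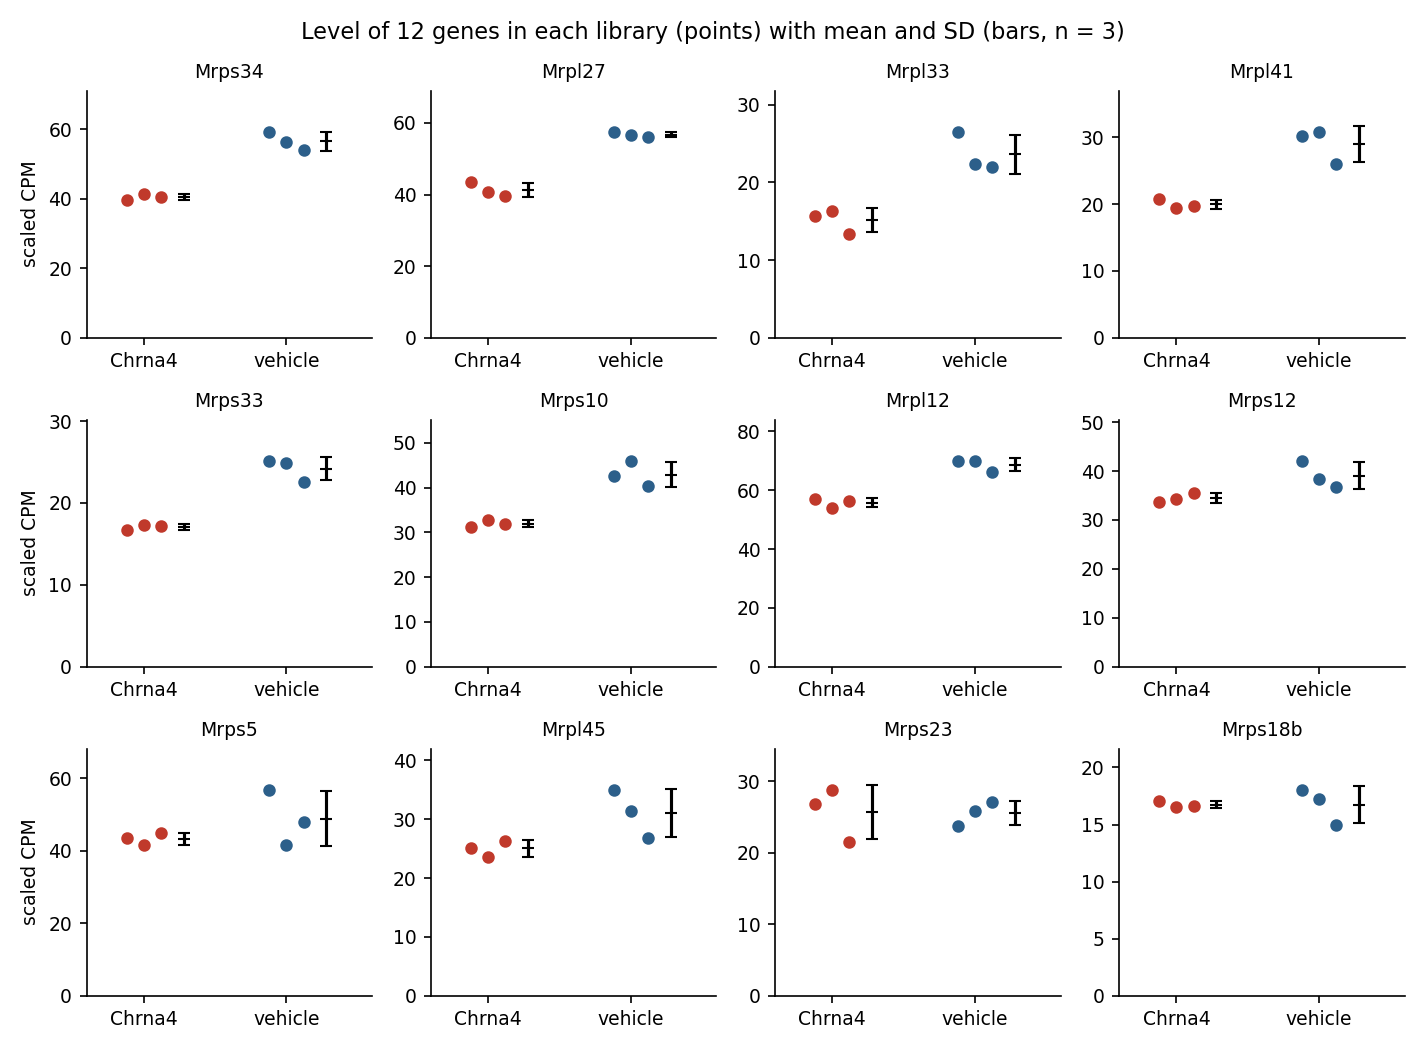
Level of 12 Mrpl and Mrps genes in scaled CPM (vertical axes, each from 0) in every library, Chrna4 left and vehicle right, with the mean and SD of each group (n = 3). Mrps34, Mrpl27, Mrpl33, Mrpl41, Mrps33, Mrps10 and Mrpl12 have separate groups and passed the test, and Mrps5, Mrps23 and Mrps18b have overlapping groups.

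Of the 55 members that were not called, 25 had all Chrna4 values under all vehicle values, a pattern seen in 21% of all tested genes, called or not. Those with the largest differences were Mrpl38 and Mrpl23. Mrpl38 had 56.9, 66.9 and 66.3 CPM in Chrna4 livers and 101.6, 71.7 and 81.1 CPM in vehicle livers (log2 fold change -0.40, limma adjusted p = 0.0665). Mrpl23, which lies at the exit of the peptide tunnel, had 28.8, 30.0 and 30.0 CPM in Chrna4 livers and 47.99, 35.8 and 35.0 CPM in vehicle livers (log2 fold change -0.39, limma adjusted p = 0.0633). In both, vehicle replicate 1 was the highest library.

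Of the 3 members with a fold change above 0, Mrpl54 had the highest, at 0.045. Mrpl54 had 24.5, 20.1 and 22.4 CPM in Chrna4 livers and 23.8, 21.2 and 19.7 CPM in vehicle livers (limma, adjusted p = 0.826); on plain totals its fold change was 0.37 (limma, adjusted p = 0.0406). The members nearest to 0 were Mrps23 and Mrps6. Mrps23 had 26.8, 28.8 and 21.5 CPM in Chrna4 livers and 23.8, 25.9 and 27.1 CPM in vehicle livers, with an interval of -0.30 to 0.30 on the log2 scale. Mrps6, the least abundant member by CPM, had 4.87, 5.51 and 5.62 CPM in Chrna4 livers and 5.25, 4.56 and 6.31 CPM in vehicle livers, with an interval of -0.35 to 0.35. The intervals do not show that these genes were unaffected, as they reached -0.23 in Mrpl54, -0.30 in Mrps23 and -0.35 in Mrps6. Over all 77 members, called or not, 76 had an interval that reached -0.25 or lower, and Mrpl54 did not. Mrps36, which is now known as a part of the alpha-ketoglutarate dehydrogenase complex and not of the ribosome, had 9.80, 9.16 and 8.37 CPM in Chrna4 livers and 11.8, 11.1 and 9.28 CPM in vehicle livers (log2 fold change -0.21, limma adjusted p = 0.307).

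By origin, 17 of 48 genes with a bacterial counterpart (35.4%) and 5 of 28 found only in mitochondrial ribosomes (17.9%) were called lower on the authors' scaling. Of all tested genes 10.3% were. The median fold changes of the 2 classes were close, at -0.29 and -0.26, and the difference in counts was not tested. The classes also differed in length, with representative transcripts of 1150 and 1506.5 bases in the median. By subunit, 15 of 50 large-subunit and 7 of 26 small-subunit genes were called lower, with none of either lower on plain library totals. The members lie on 17 chromosomes and those called lower on 13.

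Promoters of the members were searched for letters bound by factors known to drive nuclear genes of mitochondria (NRF1, GABP and YY1), and for CCAAT as a general promoter element. A RefSeq window (GRCm38.p6) of 250 bases before and 50 bases after the transcript start was matched for 68 of 77 members and searched on both strands. The NRF1 letters, GCGCA and GCGC with any 1 base between them, occurred in 13 windows (19.1%), against 10.7% of the 9566 windows of tested genes. The ETS letters CCGGAAG, bound by GABP, occurred in 23 (33.8%), against 18.4% of those windows. The YY1 letters AAGATGG occurred in 13 (19.1%), against 7.3%. CCAAT occurred in 26 (38.2%), against 39.0%. Overall 40 of the 68 members held NRF1, ETS or YY1 letters; no motif is contained in another.

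Members called lower and members not called both held these letters. Of 20 windows of called members, 4 held NRF1, 5 ETS, 4 YY1 and 8 CCAAT letters, and of 48 windows of members not called, 9, 18, 9 and 18 did. A match is a description of letters and not a site. The 150 bases before the start are shown for 4 members that make this visible: Mrpl34 and Mrpl41, both called lower, with and without ETS letters, and Mrpl45 and Mrps23, both not called, with and without NRF1 letters. Capitals mark the ETS letters of Mrpl34 and the NRF1 letters of Mrpl45; each sequence runs 5′ to 3′ on the strand of its gene.
Mrpl34, chr8:71464776-71464925, plus strand: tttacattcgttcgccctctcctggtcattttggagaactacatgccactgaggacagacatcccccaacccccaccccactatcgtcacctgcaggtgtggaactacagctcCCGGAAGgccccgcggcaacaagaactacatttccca
Mrpl41, chr2:24975099-24975248, minus strand: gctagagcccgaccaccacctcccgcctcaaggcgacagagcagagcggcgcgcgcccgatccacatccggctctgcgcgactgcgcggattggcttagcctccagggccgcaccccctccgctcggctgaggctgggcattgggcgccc
Mrpl45, chr11:97315566-97315715, plus strand: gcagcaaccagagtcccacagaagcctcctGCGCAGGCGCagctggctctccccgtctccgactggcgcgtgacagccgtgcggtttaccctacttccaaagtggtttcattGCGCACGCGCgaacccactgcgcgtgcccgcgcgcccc
Mrps23, chr11:88204238-88204387, plus strand: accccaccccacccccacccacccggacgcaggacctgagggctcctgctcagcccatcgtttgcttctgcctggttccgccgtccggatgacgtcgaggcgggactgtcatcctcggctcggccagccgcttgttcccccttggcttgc

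Many members share their promoter region with a gene read the other way. In 20 pairs the 5′ ends of a member and a tested neighbour that is no member lay between -300 (overlapping) and 1000 bases apart. The member was called lower in 8 of these pairs, and the neighbour was called lower in 2 and higher in 1. The neighbours' counts are near or under the 10.3% lower and 14.2% higher of all tested genes. Both fell in 1 pair, Mrpl36 and the complex I gene Ndufs6, at log2 fold changes of -0.45 and -0.61 (limma adjusted p = 0.0249 and 0.0114). Mrps12 and Sars2, the mitochondrial seryl-tRNA synthetase, stood at -0.17 and -0.19, and neither was called. Mrps18b stood at 0.0029 beside its lower neighbour Ppp1r10 at -0.59 (limma, adjusted p = 0.00708). Mrpl51, at -0.26 and not called, stood beside Ncapd2, a condensin subunit that rose by 0.75 on the log2 scale (limma, adjusted p = 0.00477). Over the 20 pairs the median was -0.26 for members and -0.14 for neighbours.

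Most members called lower had short transcripts, and the share called lower was smaller in longer classes of all tested genes too. Of the 24 with a representative transcript under 1000 bases, 12 were called lower, with a median log2 fold change of -0.39. Of 28 between 1000 and 2000 bases 9 were (32.1%), and of 25 with 2000 bases or more 1 was (4%), with medians of -0.27 and -0.24. Of all tested genes 25.4, 15.8 and 7.48% were called lower in these 3 classes of length, with medians of -0.22, -0.11 and 0.028. Members were shorter than other genes, with a median of 1316 bases against 3008 for all tested genes. Across genes, which share libraries and are not independent, Spearman's rho of log2 fold change with length was 0.337 over the 77 members and 0.193 over 12097 tested genes. The part of length in the family's difference was not tested.

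**Figure D4:**
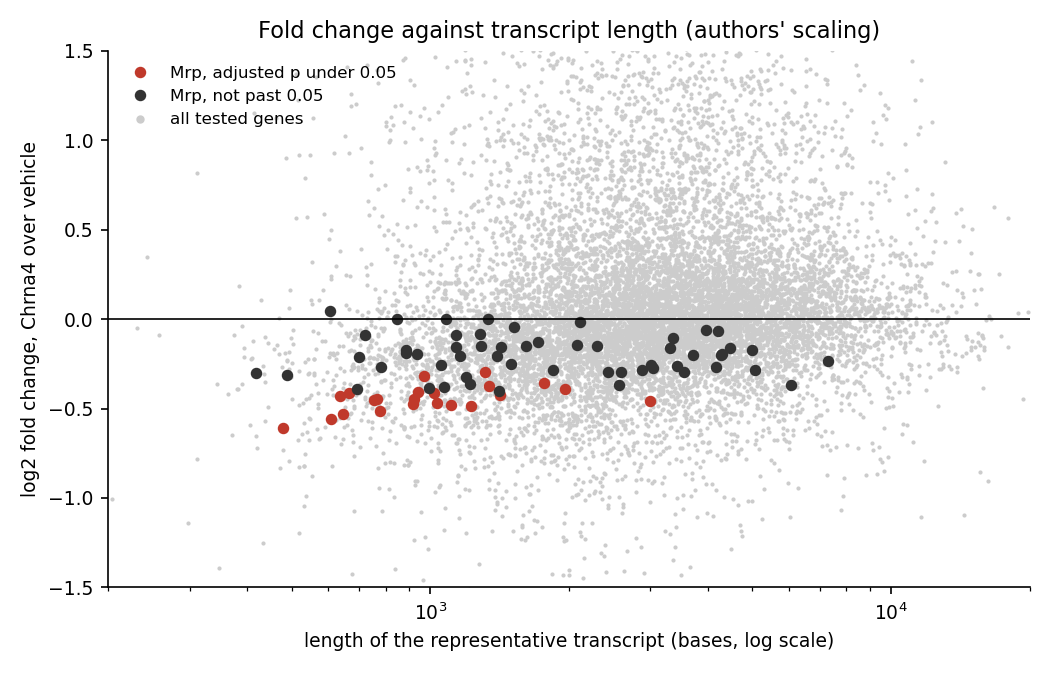
Log2 fold change on the authors' scaling, Chrna4 over vehicle, against the length of the representative transcript (log scale) for Mrpl and Mrps genes and all tested genes in grey, of which 310 lie outside the axes. The members called lower, in red, gather at the short end, 12 of them under 1000 bases and 1 at 2000 bases or more; on plain library totals none is called lower.

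Genes that act with the mitochondrial ribosome were read from the same limma fit, on the authors' scaling, and differences between lists were not tested. Of 5 tested ribosomal proteins with other names, 2 fell: Aurkaip1, a protein of the small subunit, and Chchd1, another. Aurkaip1 had 54.5, 54.9 and 48.5 CPM in Chrna4 livers, against 78.1, 73.3 and 69.0 CPM in vehicle livers (log2 fold change -0.47, adjusted p = 0.0101). Chchd1 had a log2 fold change of -0.43 (adjusted p = 0.0133), and Dap3, the GTP-binding protein of the small subunit, was not called at -0.29 (adjusted p = 0.116). Their median of -0.34 was near that of the Mrpl and Mrps genes, and on plain totals it was -0.017.

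Factors that build and use the ribosome had medians nearer to 0, and the share called lower, at 7.69% of assembly factors, 12.5% of translation factors and 11.8% of mitochondrial tRNA synthetases, was near the 10.3% of all tested genes. Of 26 assembly factors 2 fell, the GTPase Mtg1 and Mterf3, at log2 fold changes of -0.37 each (limma adjusted p = 0.0300 and 0.0473), and the list's median was -0.13. Of 16 translation factors 2 fell, the ribosome recycling factor Mrrf at -0.33 and the elongation factor Gfm1 at -0.30 (limma adjusted p = 0.0448 and 0.0466), with a median of -0.10. Of 17 mitochondrial tRNA synthetases 2 fell, Nars2 at -0.41 and Fars2 at -0.39 (limma adjusted p = 0.0260 and 0.0278), with a median of -0.16. On plain totals limma called 0 of these genes lower, with 0 lower at an unadjusted p of 0.05. It called 4 assembly factors, 0 translation factors (4 at an unadjusted p of 0.05) and 3 synthetases higher, against 37.3% of all tested genes. The 3 medians were 0.18, 0.22 and 0.16, against 0.30 for all tested genes. Without any 1 of the Chrna4 libraries limma called 0 genes of the 3 lists lower on the authors' scaling. In those fits 707, 496 and 615 of all tested genes were called lower, against 1241 with all 6 libraries. Assembly factors, translation factors and synthetases called lower numbered 1, 3 and 3 without vehicle replicate 1. They numbered 1, 0 and 1 without vehicle replicate 2, and 1, 0 and 0 without vehicle replicate 3.

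Of 27 genes of mitochondrial DNA transcription and RNA handling 3 fell (11.1%, near the 10.3% of all tested genes), and 1 without any 1 of the Chrna4 libraries. Hsd17b10, a dehydrogenase that is also a subunit of mitochondrial RNase P, had 109.6, 116.9 and 95.01 CPM in Chrna4 livers, against 371.9, 308.1 and 225.4 CPM in vehicle livers. The vehicle values spread widely but all lay far above the Chrna4 values (log2 fold change -1.46, limma adjusted p = 0.00133), and on plain totals the call held at -1.13 (limma, adjusted p = 0.00171). Tfam, which packages and transcribes mitochondrial DNA, had 43.9, 38.5 and 40.1 CPM in Chrna4 livers and 37.7, 44.0 and 37.7 CPM in vehicle livers (log2 fold change 0.037, limma adjusted p = 0.837). Of 13 regulators of mitochondrial biogenesis limma called 0 in either direction, with 0 at an unadjusted p of 0.05 and 0 by edgeR and DESeq2, and a median of 0.13 on the authors' scaling. Without vehicle replicate 1 or 3 limma called 1 of the 13 higher each time, when 1913 and 1619 of all 12099 tested genes were higher. On plain totals 9 of the 13 were called higher, against 37.3% of all tested genes.

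The messenger RNAs that the mitochondrial ribosome translates were lower in Chrna4 livers on both scales. Of 13 genes encoded in mitochondrial DNA, 12 fell on the authors' scaling, against 10.3% of all tested genes. On plain totals 8 fell, against 2.82% of all tested genes. The medians were -0.91 and -0.58. mt-Nd4l, a complex I subunit, had 68.1, 77.4 and 52.4 CPM in Chrna4 livers, against 124.2, 163.0 and 149.2 CPM in vehicle livers (log2 fold change -1.14, limma adjusted p = 0.00228). mt-Co2 was not called, at 208.0, 145.6 and 180.4 CPM in Chrna4 livers and 314.7, 429.4 and 200.4 CPM in vehicle livers (limma, adjusted p = 0.059). Reads of these genes can also match nuclear copies of mitochondrial DNA, and the labels do not say how such reads were counted. Without single libraries the count ran between 4 and 12 on the authors' scaling, lowest without Chrna4 replicate 3.

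Of the nuclear genes of complex I, which assembles with products of these ribosomes, 30 of 37 were called lower on the authors' scaling (81.1%). Of all tested genes 10.3% were. The median of the 37 was -0.57. On plain totals 6 were called lower, against 2.82% of all tested genes, with a median of -0.23. Of 76 tested genes of cytosolic ribosomal proteins 2 were called lower on the authors' scaling (2.63%, against 10.3%), with a median of -0.16. On plain totals 13 of them were called higher, against 37.3% of all tested genes, with a median of 0.17 against 0.30. The Mrpl and Mrps median of -0.27 lay between those of these 2 lists on the authors' scaling. Without Chrna4 replicate 2 and 3, the complex I count was 12 and 13 on the authors' scaling. Of 29 protein import genes 6 fell (0 to 3 without a single library, lowest without Chrna4 replicate 3), among them Timm23, the channel of the inner membrane, at -0.43 (limma, adjusted p = 0.0200). Of 15 mitophagy and protease genes 3 fell (0 without Chrna4 replicate 2 or 3), among them the mitophagy receptor Bnip3, at -0.54 (limma, adjusted p = 0.0131). On plain totals 2 genes of each of these last 2 lists were called higher by limma, against 37.3% of all tested genes, and 0 lower. None had a negative change at an unadjusted p of 0.05.

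**Figure D5:**
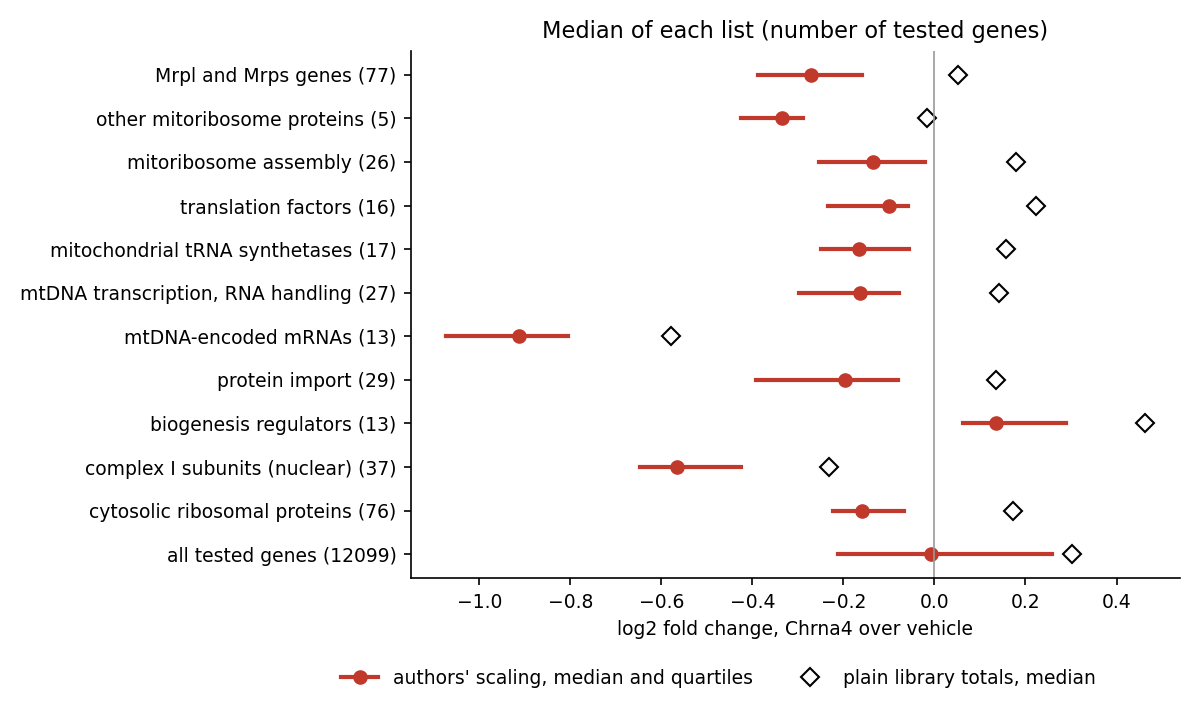
Median log2 fold change, Chrna4 over vehicle, of the Mrpl and Mrps genes, of lists of genes with related roles and of all tested genes, with quartiles on the authors' scaling (red) and the median on plain library totals (diamonds). The Mrpl and Mrps median is -0.27 and 0.05 on the 2 scales, that of the messenger RNAs encoded in mitochondrial DNA -0.91 and -0.58, and that of all tested genes -0.007 and 0.30.

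Markers of some other liver cells differed between the groups on the authors' scaling. Of 6 macrophage markers 4 rose (without vehicle replicate 1 4 were higher and 2 lower, and without Chrna4 replicate 2 or 3 1 was higher), and their summed level was 789 to 860 CPM in Chrna4 livers and 230 to 594 CPM in vehicle livers. Of 5 stellate cell markers 4 rose, Col1a1 by 3.31 on the log2 scale, with sums of 446 to 487 CPM in Chrna4 and 134 to 157 CPM in vehicle livers. All 5 tested T and NK cell markers rose, with sums of 30.0 to 41.3 CPM in Chrna4 and 2.85 to 12.6 CPM in vehicle livers. Of these 5, edgeR and DESeq2 each called 4 higher, and limma called 3 without any 1 of the Chrna4 libraries. Of 5 endothelial markers Lyve1 rose and Clec4g fell, and the sums overlapped, at 214 to 259 CPM in Chrna4 and 199 to 253 CPM in vehicle livers. On plain library totals the endothelial sums lay apart, at 244 to 288 CPM in Chrna4 and 169 to 234 CPM in vehicle livers. Of 3 tested B cell markers limma called 0, with 3 higher at an unadjusted p of 0.05 and 0 called by edgeR and DESeq2. Of 3 erythroid markers Alas2 fell, and the sums overlapped, at 170 to 232 CPM in Chrna4 and 217 to 335 CPM in vehicle livers. The cholangiocyte marker Sox9 rose by 0.90 on the log2 scale, whereas Krt19, Krt7 and Epcam were under the filter; Krt19 (0.424 to 0.688 CPM in Chrna4, 0.772 to 1.18 CPM in vehicle livers) and Epcam (0.371 to 0.939 CPM in Chrna4, 1.18 to 1.54 CPM in vehicle livers) lay lower in Chrna4 livers, untested. Sox9 was not called without Chrna4 replicate 1, Chrna4 replicate 3 or vehicle replicate 2. The adipocyte marker Cidec rose by 1.99 on the log2 scale. Of the 8 hepatocyte markers 1, Ttr, fell by 0.84 on the log2 scale, and the list's median was -0.23, or 0.10 on plain totals. No listed marker in the table was at 0 in a library. The part of these cells in the difference of the Mrpl and Mrps genes was not tested.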

How the data were processed

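Poly(A)+ liver RNA of 6 mice was read as 150 bp pairs on an Illumina HiSeq4000, per the labels. The submitters' processing notes name TopHat2, HTSeq, mm10 and GRCm38, with no version or role. The signal that the authors deposited per library is, from its steps, CPM, with each library total multiplied by a factor: 100% of values were whole reads within 0.01, and the implied factors equal TMM factors. The authors also deposited log2 fold changes, p-values and adjusted p-values of their own comparison.

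Genes with a mean of 1 or more (12099; 2393 were left out) were tested on log2(value + 1) with lmFit and trended eBayes of limma 3.58.1 under R 4.3.3, Benjamini-Hochberg adjustment over all of them and a threshold of 0.05. Fold changes on this scale understate the change of low genes. All 77 members passed the filter, with 68 to 1634 reads per library each. Alternatives were edgeR 4.0.16 (quasi-likelihood) and DESeq2 1.42.0 on recovered reads, plain library totals, quantile normalization, a pseudocount of 0.25, no filter or a mean of at least 5, no trend, sample weights and leaving out each library. The fitting script was tested on simulated data with known changes. An exact permutation test of 3 against 3 libraries cannot go below 0.1.

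Libraries of a group differed beyond counting error, at a chi-square per degree of freedom of 10.3 to 17.7 in Chrna4 and 47.5 to 65.7 in vehicle, and were counted separately. Each has its own liver number, and no batch is stated. GENCODE M21 held the IDs of 14488 of 14492 genes and gave coordinates and 1 representative transcript of each gene; sequences are from RefSeq. Pseudogenes of Mrpl23, Mrpl48 and Mrps36 exist, and the counting of reads that match several genes is not stated. Transcripts of 27 members overlap exons of another gene, and 10 of these members were called lower on the authors' scaling. Of the 50 members without such an overlap 12 were, and of all tested genes 10.3%. The median log2 fold changes with and without overlap were -0.29 and -0.27.

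Members and lists were chosen with earlier results of these data known. Named genes are those called with the lowest p (5 Mrpl and 5 Mrps), the uncalled with the 2 largest and 2 smallest changes, the highest and lowest per kilobase, members picked by role, and the lowest p of each other list. Others, such as Mrpl34, Mrpl36, Mrpl54, Mrpl51, Dap3, Tfam and mt-Co2, were named after their values were seen.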

Additional observations from a re-analysis of the deposited data

How the results depend on the processing

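With each library left out in turn, the number of genes called higher by limma ran from 946 to 1913 and lower from 496 to 1418, members called lower from 3 to 24, the member median from -0.31 to -0.21 and its difference from the median of all genes from -0.32 to -0.20. With plain library totals, 4511 genes were higher and 341 lower, 1 member was higher and 0 lower (5 higher and 1 lower at an unadjusted p of 0.05), and the member median was 0.051. A mean of at least 5 left 1036 genes higher. Sample weights gave 2006 genes and 35 members lower. Under the other alternatives, 18 to 25 members were called lower. Mrps34, Mrpl27 and Mrpl33 were called in 14 of 15 alternatives and missed with plain totals, at adjusted p-values of 0.217, 0.318 and 0.0914; Mrpl30 was called in 3.

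With plain totals 46 members turned from negative to positive, Mrpl12 and Mrpl30 (0.011) of the 22 called lower among them, and 0 the other way. Mrpl51 then stood at 0.069. Values of the others that the text names were 0.20 (Mrpl10), 0.051 (Mrpl11), 0.034 (Mrpl12), 0.14 (Mrpl19), 0.16 (Mrpl44), 0.029 (Mrpl45), 0.21 (Mrpl47), 0.025 (Mrpl52), 0.028 (Mrpl58), 0.15 (Mrps12), 0.14 (Mrps18a), 0.013 (Mrps21), 0.034 (Mrps27), 0.15 (Mrps30), 0.093 (Mrps36), 0.17 (Mrps5) and 0.28 (Mrps6). Genes near 0 turned under other settings. Quantile normalization gave -0.35 for Chrna4, -0.08 for Mrps18b and -0.022 for Mrps23, and a pseudocount of 0.25 gave -0.00015 for Mrps23. For Chrna4, edgeR gave -0.064, DESeq2 -0.071 and sample weights -0.45; for Mrps6, edgeR gave 0.0062 and sample weights 0.089, and for Mrpl44 weights gave 0.019. Fits without 1 library, which left both signs in these 4 genes, ran from -0.30 to 0.27 for Chrna4, from -0.084 to 0.12 for Mrps23, from -0.070 to 0.056 for Mrps18b and from -0.096 to 0.10 for Mrps6. The cause was not tested beyond the change of scale.

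No paired analysis was possible because the liver numbers of the 2 groups are not shared and the replicate numbers only name libraries. With 4 residual degrees of freedom, standard errors of members ran from 0.085 to 0.159 on the log2 scale, so small changes were not detectable for most. The called change nearest 0 was -0.30 (Mrpl12), and a change as large as -0.40 (Mrpl38) was not called. Depth, at 68 reads or more per member and library, limits the lowest members most.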
